A study of Mus musculus with 12 samples.

Results

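The genes described here encode the proteins of the cytosolic ribosome. They were taken as every protein-coding gene whose symbol is Rpl or Rps followed by a number, with an optional a, x or l and digit, or is Rplp0, Rplp1, Rplp2 or Rpsa. The rule found 83 genes among 21981 in the table, 51 of the large subunit and 32 of the small subunit, with 220 transcripts. RNA levels were measured by sequencing of rRNA-depleted total RNA in 2 tissues of C57BL/6 mice, an inbred laboratory strain, aged 8 weeks. The trigeminal ganglia (TG) hold the cell bodies of the sensory neurons of the face, and the spinal trigeminal nucleus caudalis (Sp5C) is the brainstem nucleus that those neurons reach. The series concerns persistent inflammation of the jaw joint. Its 12 libraries fell into 4 groups of 3, named STG, CTG, SSp5C and CSp5C after the sample titles. The labels do not explain the letters S and C and name no treatment or genotype that sets them apart, so every contrast between the letters is given as C minus S.

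Each ribosome joins a small subunit, which reads the mRNA, to a large subunit, which forms the peptide bonds, and most of its proteins are present in 1 copy. Mammalian ribosomal protein mRNAs start with a C followed by a run of pyrimidines, the terminal oligopyrimidine (TOP) motif, through which the mTOR kinase and the RNA-binding protein Larp1 set their translation. In neurons, ribosomes and ribosomal protein mRNAs are found in axons as well as in the cell body. A few genes have paralogs whose products can take the place of the main protein, and many have processed pseudogenes, which are intronless copies elsewhere in the genome.

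The sequence around the transcription start is shown for 8 members, because their differences between the tissues are among the largest or, for Rps6, because its protein is the known target of the S6 kinases. The sequences are from RefSeq, build GRCm38.p6. Each covers 45 bases before the annotated start and 15 bases from it on, printed on the gene's own strand. Capitals mark the longest run of at least 5 pyrimidines that begins with C within 15 bases on either side of the start. The first 3 genes were higher in TG and the other 5 were lower.
Rplp0: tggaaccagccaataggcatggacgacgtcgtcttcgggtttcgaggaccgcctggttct
Rps27l: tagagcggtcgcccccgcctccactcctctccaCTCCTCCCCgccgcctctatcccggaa
Rpl10: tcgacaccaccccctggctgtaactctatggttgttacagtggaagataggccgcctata
Rps15a: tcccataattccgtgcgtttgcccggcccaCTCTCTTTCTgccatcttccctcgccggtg
Rps21: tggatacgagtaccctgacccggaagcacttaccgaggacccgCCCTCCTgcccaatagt
Rpl22l1: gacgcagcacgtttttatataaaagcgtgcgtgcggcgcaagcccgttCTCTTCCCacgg
Rps27: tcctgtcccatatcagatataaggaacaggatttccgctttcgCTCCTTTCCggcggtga
Rps6: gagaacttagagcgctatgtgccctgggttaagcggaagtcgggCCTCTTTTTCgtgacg
These windows lie at chr5:115559422-115559481 on the plus strand for Rplp0, chr9:66946041-66946100 plus for Rps27l, chrX:74270771-74270830 plus for Rpl10, chr7:118116133-118116192 minus for Rps15a, chr2:180257334-180257393 plus for Rps21, chr3:28805463-28805522 plus for Rpl22l1, chr3:90213634-90213693 minus for Rps27 and chr4:86857353-86857412 minus for Rps6. The runs in Rps21, Rps27 and Rps6 span the annotated start, that of Rps15a ends before it although a shorter one begins at it, and that of Rpl22l1 begins after it. The windows of Rplp0 and Rpl10 hold no such run. Neither do those of Rpl37 (-0.54 on the log2 scale) and Rps24 (-0.41), which were also lower in TG and are not shown, so the windows shown are a selection. The annotated start lies 41 to 72 bases from that of the gene's leading transcript in Rpl10 (44), Rps15a, Rpl22l1 and Rps6 (45), and at most 3 bases in the others.

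Of the 83 members, 63 had an entry in the RefSeq promoter table. A C at the annotated start followed by at least 4 pyrimidines stood in 13 of the 63 (20.6%), against 2.99% of 10050 other genes that passed the level filter. A pyrimidine run of at least 8 bases led by C within 15 bases of the start was present in any entry of 26 members (41.3%), against 12.7% of the other genes. The motif TCTCGCGA, searched on both strands over the 250 bases before the start and 50 from it on, was present in 11 members (17.5%), Rps15a and Rps6 among them, and in 2.26% of the other genes. The motif CGGAAGT was found in 33.3% of the members and 13.9% of the other genes, by the same search. Taking for each gene only the entry nearest the start of its leading transcript, 24 members held the long pyrimidine run. It was present in 9 of the 22 members with an entry that were lower in TG, in 1 of the 4 that were higher and in 14 of the 34 that did not pass the test. These are matches of letters in annotated starts, which can differ from the starts used in these tissues.

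Ribosomal protein mRNAs were among the abundant transcripts of both tissues. All levels are FPKM (fragments per kilobase of transcript, scaled to the fragments of the library), summed over a gene's transcripts, and so are per length. A mean of at least 1 FPKM over the 12 libraries was reached by 79 members, whose median was 88.2 FPKM against 9.15 FPKM over all genes past this filter. Levels of at least 100 FPKM were held by 37 members, 50 to 100 FPKM by 24, 10 to 50 FPKM by 16 and under 10 FPKM by 2. The order of members was similar in both tissues, with a Spearman correlation of 0.955 across the 79 genes, which share libraries and annotation. The highest mean belonged to Rps29 at 306 FPKM, a small zinc-binding protein of the small subunit. It was followed by Rplp1 (262 FPKM), an acidic protein of the ribosomal stalk, Rps24 (236 FPKM), Rps21 (224 FPKM) and Rpl38 (215 FPKM). Of the summed protein-coding FPKM, the family held 2.51 ± 0.195% in the TG libraries and 2.69 ± 0.0869% in those of Sp5C (SD, n = 6), and the libraries of the tissues overlapped, at 2.25 to 2.78% in TG and 2.59 to 2.84% in Sp5C. Mitochondrially encoded genes took 8.29 to 10.6% of that sum in TG and 9.47 to 17.3% in Sp5C. The 9.47% was that of SSp5C replicate 1, and the other Sp5C libraries were at 14.6 to 17.3%. Without the mitochondrially encoded genes, the family held 2.77 ± 0.216% in TG and 3.15 ± 0.0720% in Sp5C. How many reads lie behind these values is unknown, since FPKM tables give no read numbers.

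The 4 members under the filter were tissue-restricted paralogs and Rpl29. Rpl3l, the paralog of Rpl3 known from heart and skeletal muscle, ranged from 0 to 0.0806 FPKM in TG and from 0.103 to 0.551 FPKM in Sp5C. Rpl39l and Rpl10l, known from testis, reached at most 0.182 FPKM and 0.0696 FPKM in any library. Rpl29 lay between 0.344 and 1.25 FPKM. Its coding sequence has 29 near-identical copies, that is, other annotated genes that match at least 90% of it with at least 95% identity in GENCODE M21, a mouse annotation on build GRCm38. The 4 were not tested.

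Near-identical copies were common in the family and bear on how far a level can be trusted. At least 1 copy was found for 77 members and the median was 5 per member. The copies numbered 579 in all, of which 553 are annotated as pseudogenes. The 6 members with at least 20 copies, Rpl21 (56), Rpl7a (31), Rpl29 (29), Rps2 (24), Rps12 (23) and Rpl17 (20), had means of 0.739 to 32.4 FPKM. Of these 6, Rpl29 is under the filter. The 41 members past the filter with at most 5 copies had a median of 84.5 FPKM. These 41 leave out Rpl3l and Rpl39l (0 copies each) and Rpl10l (1 copy), which are under the filter. Across all 79 members the number of copies and the mean level had a Spearman correlation of -0.113. How the upstream processing divided reads among copies is not given in the sources used here, so levels of members with many copies are uncertain. FPKM also divides by the annotated transcript length. The leading transcripts of Rps15a and Rps20 are annotated at 5179 and 3706 bases around coding sequences of 390 and 357 bases, and their means were 19.1 and 18.04 FPKM. Whether length bears on these levels was not tested.

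Single libraries stood far from the others more often in this family than in the table at large. A library at least 1 log2 unit from its tissue's median was found for 12 of 79 members (15.2%), against 3.75% of all 13081 genes tested. With a mean of at least 10 FPKM, it was found for 10 of 77 members (13.0%), against 2.41% of all such genes. Rpl34, a large subunit protein, lay at 47.6 FPKM in CTG replicate 2 and 44.7 FPKM in CSp5C replicate 2, whereas the other 10 libraries held 2.34 to 3.78 FPKM. The small subunit gene Rps3a1 was at 27.7 FPKM in CTG replicate 3 and 33.6 FPKM in CSp5C replicate 3, and at 66.98 to 174 FPKM elsewhere. Rpl14 was at 30.1 FPKM in CTG replicate 1 and 32.0 FPKM in CSp5C replicate 1, and at 79.7 to 98.4 FPKM elsewhere. In each of these genes, the C libraries of the same number moved together in both tissues. Rps2, Rpl21, Rpl30 and Rpsa did so in replicate 3 of CTG and CSp5C. Rps2 and Rpl21 were also high in STG replicate 1, at 40.3 and 12.6 FPKM, but not in SSp5C replicate 1, at 4.36 and 1.35 FPKM. Of 19 such shifted values in C libraries, 14 were shifted the same way in the C library of that number in the other tissue (73.7%, against 19.6% over all genes), and of 7 in S libraries 2 were (28.6%, against 6.49%). STG replicate 1 stood alone for Rps18, at 63.0 FPKM against 2.104 to 6.37 FPKM in the other TG libraries, and for Rpl26, at 4.89 FPKM against 109 to 199.8 FPKM. The labels do not say what libraries of the same number share, and no cause was tested.

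**Figure D1:**
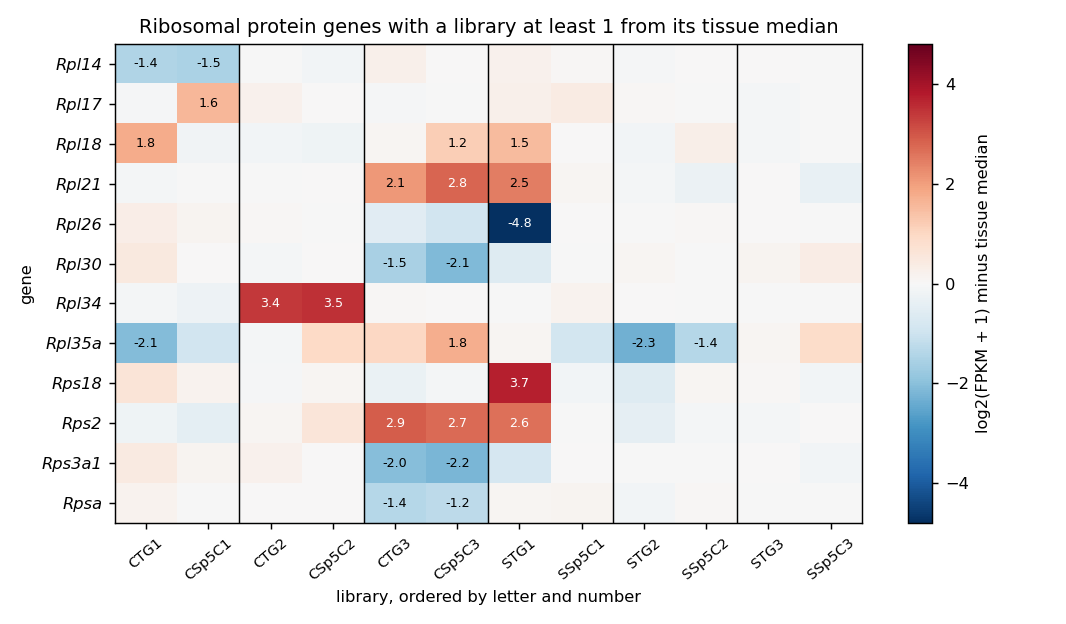
Heat map of the 12 ribosomal protein genes with at least 1 shifted library. Rows are genes, columns are libraries paired by letter and number, colour is log2(FPKM + 1) minus the median of the 6 libraries of that tissue, and numbers are printed where the deviation is at least 1. Rpl14, Rpl21, Rpl30, Rpl34, Rps2, Rps3a1 and Rpsa show the same deviation in CTG and CSp5C libraries of one number.

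Some libraries also differed in cell content. Summed over 7 pituitary marker genes, STG replicate 1 held 2865 FPKM and the other TG libraries 2.57 to 51.6 FPKM. Of 12 markers of blood and bone marrow, the 10 neutrophil genes summed to 877 FPKM in CTG replicate 1, 292 FPKM in CTG replicate 3 and 4.003 to 33.7 FPKM in the other TG libraries. The 2 haemoglobin genes summed to 864 FPKM in STG replicate 3, 563 FPKM in CTG replicate 1 and 73.7 to 402 FPKM in the other TG libraries. The tissues matched their labels, with 7 sensory neuron markers at 1524 to 1731 FPKM in TG and 161 to 255 FPKM in Sp5C, and 5 markers of inhibitory brainstem neurons at 0.358 to 0.824 FPKM in TG and 298 to 343 FPKM in Sp5C. Counts are therefore also given without STG replicate 1 and CTG replicate 1, a choice made after the data were seen. The labels do not say that the libraries came from separate animals, so a p-value here reflects the variation among the libraries as sequenced, which could be technical.

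The first contrast set TG against Sp5C, that is, ganglion against brainstem. In the fit without pairing of libraries, no difference passed in most members, 28 were lower in TG and 6 were higher. A fit with a block for libraries of the same letter and number called 41 of the 79, so that statement depends on the pairing. The share of all genes called in the block fit is not given, so this count is not set against it. In limma on log2(FPKM + 1), adjusted over all 13081 genes tested, 6 of 79 members were higher in TG (7.59%), where 36.2% of all genes were, and 28 were lower (35.4%), where 35.0% of all genes were. In either direction 34 were called (43.0%), where 71.2% of all genes were, and 36 had an unadjusted p under 0.05 (45.6%, against 73.2%). The tissues did not overlap in 17 members (21.5%, against 53.7% of all genes), 3 of them higher in TG. The share of members that were lower was thus near that of all genes, and the share that were higher was below it. The differences were small. The median over the members was -0.13 on the log2 scale, against 0.01 over all genes tested, and the median absolute difference was 0.21 against 0.35. A difference of at least 1 was seen in 2 members (2.53%), Rplp0 and the uncalled Rpl26, and in 19.1% of all genes. The calls comprised 4 higher and 13 lower of 47 large subunit genes, and 2 higher and 15 lower of 32 small subunit genes. Without STG replicate 1 and CTG replicate 1, 4 members were higher and 34 lower, and the share of all genes there is not given. In the fit of all 12 libraries without pairing, none of the 12 members with a shifted library was called. In bulk tissue, fewer cells that express a gene and less RNA per cell cannot be told apart.

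**Figure D2:**
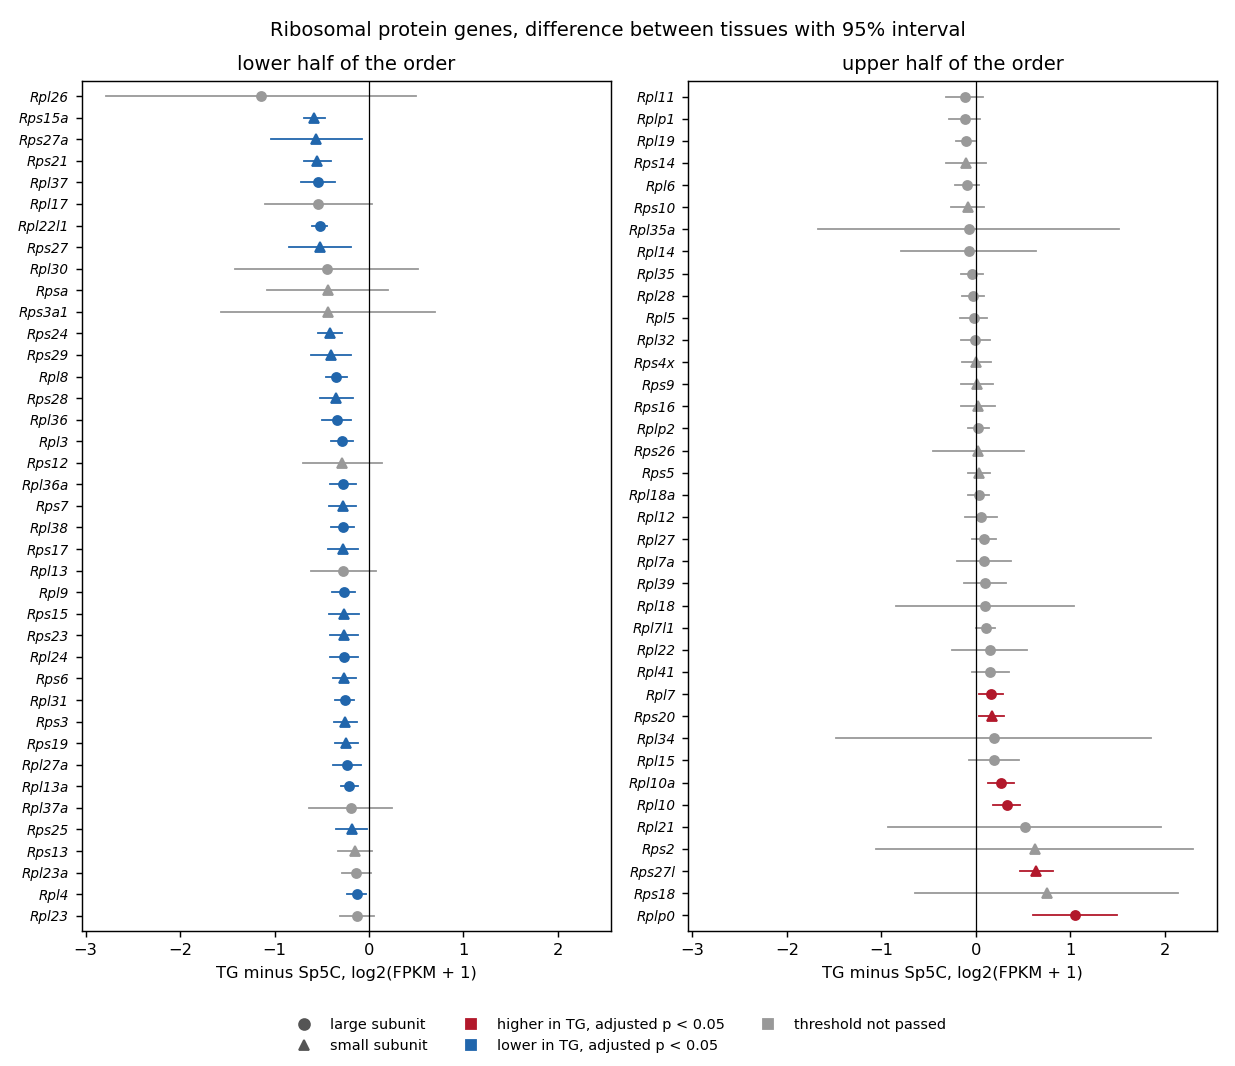
Difference in log2(FPKM + 1) between TG and Sp5C for the members past the filter, apart from those not reported here, ordered from lowest to highest over both panels, with 95% intervals from limma. Circles are large subunit and triangles small subunit genes; red and blue mark the 6 higher and 28 lower members, and grey members did not pass. Wide grey intervals belong mostly to genes with a shifted library, such as Rpl26 and Rpl34.

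Rplp0, the base of the ribosomal stalk that recruits translation factors, showed the highest difference. Its levels were 185, 110.5 and 196 FPKM in STG, 251, 142 and 165 FPKM in CTG, 64.7, 98.2 and 93.7 FPKM in SSp5C and 103, 67.9 and 69.9 FPKM in CSp5C. Every TG library was above every Sp5C library. The difference was 1.05 on the log2 scale (SE 0.20, adjusted p = 0.000709), a ratio of mean levels of 2.11. Within TG, its highest level stood in CTG replicate 1 and its lowest in STG replicate 2, the libraries with the highest (877 FPKM) and lowest (4.003 FPKM) sums of the neutrophil genes. The order in between differed. CTG replicate 3, with the next highest neutrophil sum (292 FPKM), held 165 FPKM of Rplp0. That was below STG replicate 1 (185 FPKM, neutrophil sum 33.7) and STG replicate 3 (196 FPKM, neutrophil sum 21.7). STG replicate 2 also had the lowest haemoglobin sum of TG, 73.7 FPKM. The part of blood or marrow cells in the tissue difference was not tested. Without STG replicate 1 and CTG replicate 1 the difference was 0.88 (adjusted p = 0.00461). Its partners in the stalk are Rplp1 and Rplp2. Rplp1 had a mean of 252 ± 28.4 FPKM in TG and 273 ± 18.1 FPKM in Sp5C, and Rplp2 66.7 ± 5.73 and 65.3 ± 2.83 FPKM (SD, n = 6). Their log2 differences were -0.12 (95% interval -0.28 to 0.05) and 0.03 (-0.09 to 0.14), and neither passed. Without STG replicate 1, Rplp1 was lower in TG (-0.17, adjusted p = 0.0472).

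Rps27l, a paralog of Rps27, came next. Its levels were 34.0, 27.8 and 32.0 FPKM in STG, 38.1, 30.03 and 37.0 FPKM in CTG, 20.003, 22.6 and 23.3 FPKM in SSp5C and 22.4, 18.9 and 18.03 FPKM in CSp5C. The tissues did not overlap, and the difference was 0.64 (SE 0.08, adjusted p = 1.92e-05). No near-identical copy of its coding sequence was found. Rpl10, an X-linked gene whose protein joins the large subunit late in assembly, ranged from 131 to 158 FPKM in TG (median 148) and from 105 to 127 FPKM in Sp5C (median 115). These ranges were separate as well, with a difference of 0.33 (SE 0.07, adjusted p = 0.000887). With the leading transcript in place of the sum, the value for Rpl10 was 0.06 (adjusted p = 0.901). Rpl10a, the protein of the mobile L1 stalk, had a difference of 0.27 (SE 0.06, adjusted p = 0.00197) with tissues that overlapped, at 58.4 to 78.8 FPKM in TG and 50.6 to 61.6 FPKM in Sp5C. The calls of Rps20 (0.17, adjusted p = 0.0232) and Rpl7 (0.16, adjusted p = 0.0236) were the smallest among the members that were higher. They were lost without STG replicate 1, without CTG replicate 1, without SSp5C replicate 3 or without CSp5C replicate 2, and that of Rpl7 also without CSp5C replicate 3, when adjusted p lay between 0.0518 and 0.0613. Among S libraries alone, the calls of Rpl10a (0.15, adjusted p = 0.148), Rpl7 (0.06, adjusted p = 0.476) and Rps20 (0.15, adjusted p = 0.148) were lost. That of Rps20 was also lost among C libraries alone (0.19, adjusted p = 0.0851). The calls of Rplp0, Rps27l and Rpl10 stayed with either letter alone.

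Among the members that were lower in TG, 8 stood out by the naming rule, and the tissues did not overlap in any of them. Rps15a, a small subunit protein, was at 15.9, 14.8 and 14.6 FPKM in STG, 15.4, 13.9 and 16.3 FPKM in CTG, 23.7, 24.1 and 21.6 FPKM in SSp5C and 24.2, 23.2 and 21.7 FPKM in CSp5C. The spread within each tissue was narrow beside the gap between them, and the difference was -0.58 (SE 0.05, adjusted p = 7.26e-07). Rps21, also of the small subunit, ranged from 155 to 208 FPKM in TG (median 183) and from 258 to 272 FPKM in Sp5C (median 267). Its difference was -0.55 (SE 0.07, adjusted p = 1.49e-05). Rpl37, a zinc-binding protein of the large subunit, ranged from 36.0 to 57.4 FPKM in TG and from 65.3 to 74.6 FPKM in Sp5C, a difference of -0.54 (adjusted p = 0.000112). Rps24, a protein mutated in a human inherited anaemia, ranged from 184 to 221 FPKM in TG and from 254 to 283 FPKM in Sp5C, a difference of -0.41 (adjusted p = 4.89e-05). Rpl8 and Rpl3, which lie close to the peptidyl transferase centre, had differences of -0.35 (adjusted p = 7e-05) and -0.29 (adjusted p = 0.000608), and Rpl36a one of -0.28 (adjusted p = 0.00174). With the leading transcript in place of the sum, Rpl8 was at -0.22 (adjusted p = 0.325). The eighth, Rpl22l1, is described with its paralog.

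**Figure D3:**
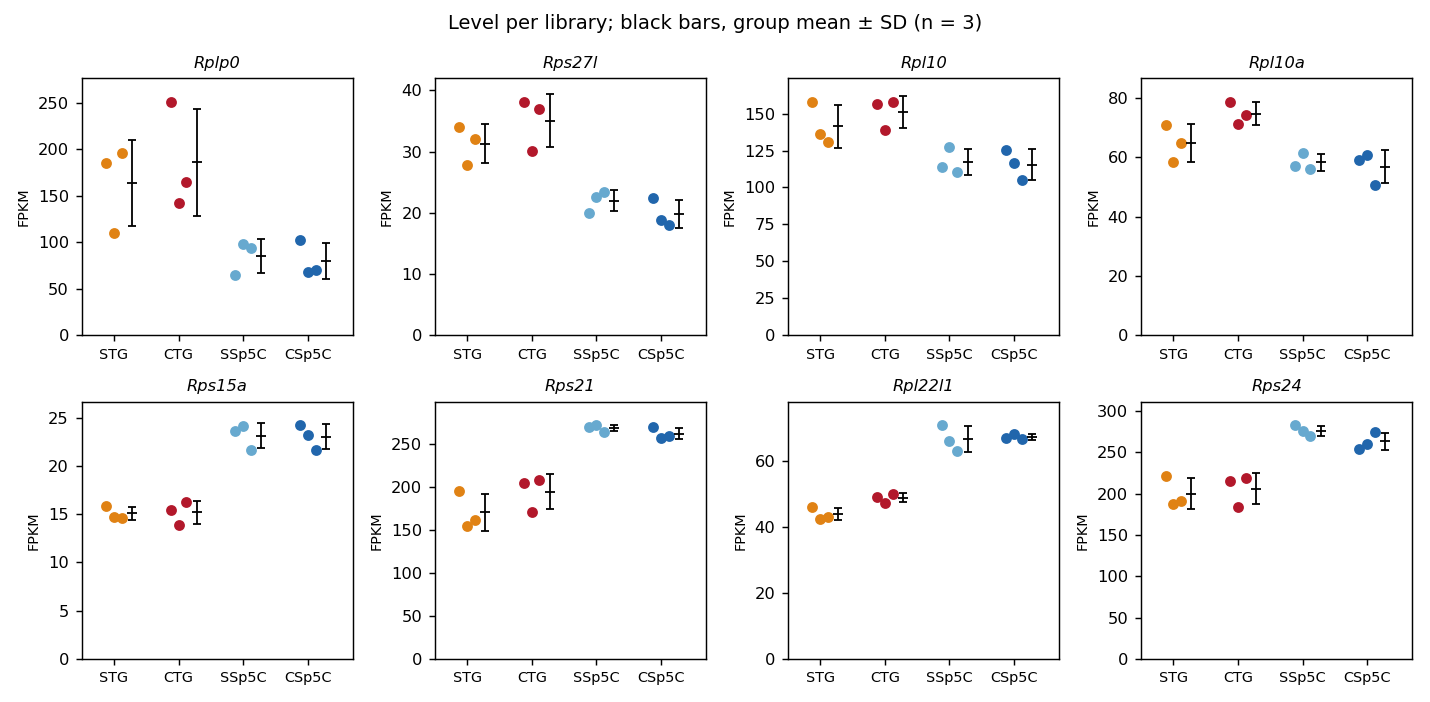
FPKM of 8 members in every library, by group, with the group mean ± SD (n = 3) in black and axes that start at 0. The upper row shows genes that were higher in TG, from Rplp0 (110.5 to 251 FPKM in TG, 64.7 to 103 FPKM in Sp5C) to Rpl10a, whose tissues overlap. The lower row shows genes that were lower in TG, such as Rps15a and Rps21, whose tissues are separate.

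Several calls depended on single libraries, transcripts or one letter, in members whose tissues overlapped and in others. Rps27a, which encodes ubiquitin fused to a ribosomal protein, was at 55.6 to 101 FPKM in TG and 82.0 to 180.2 FPKM in Sp5C, where SSp5C replicate 1 held the highest value. Its difference of -0.56 (SE 0.22, adjusted p = 0.0394) was -0.39 without that library (adjusted p = 0.0718) and also missed the threshold without STG replicate 1 or 3, CTG replicate 1 or 2, or CSp5C replicate 1 or 2. Rps27, the main gene of the Rps27l pair, had a difference of -0.52 (SE 0.15, adjusted p = 0.0093), but of -0.11 (adjusted p = 0.566) among C libraries alone. Rps29 was lower in TG by -0.40 (adjusted p = 0.0028), at 213 to 311 FPKM against 286 to 387 FPKM. The other members that were lower had differences between -0.35 and -0.13. They include Rps6, the best known substrate of the S6 kinases (-0.26, adjusted p = 0.00131), Rps19, the gene most often mutated in human Diamond-Blackfan anaemia (-0.24, adjusted p = 0.002), Rpl38, which acts on Hox mRNA translation in mouse embryos (-0.28, adjusted p = 0.0008), and Rpl13a, often used as a reference gene (-0.21, adjusted p = 0.000527). Among C libraries alone, 16 of the 34 calls were lost, and the share of all genes called there is not given. The lost calls include those of Rps6 (adjusted p = 0.101), Rpl38 (0.197), Rpl13a (0.139) and Rps29 (0.0552). Rpl5 and Rpl11, which bind 5S rRNA and the p53 regulator Mdm2, did not pass. Their differences were -0.02 (95% interval -0.16 to 0.12) and -0.12 (-0.32 to 0.08). The X-linked Rps4x stood at 115 ± 12.2 FPKM in TG against 114 ± 6.33 FPKM in Sp5C (n = 6, SD), a difference of 0.01 (-0.14 to 0.16). Rpsa, the precursor of a laminin receptor, did not pass either (-0.44, -1.08 to 0.21), and CTG replicate 3 and CSp5C replicate 3 were shifted. Without CSp5C replicate 3 it was lower in TG (-0.65, adjusted p = 0.0412), as it was among S libraries alone (-0.49, adjusted p = 0.000538).

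The shares within the paralog pairs are given as a description, with no test. Rpl22l1 was at 45.8, 42.4 and 43.1 FPKM in STG, 49.1, 47.3 and 49.9 FPKM in CTG, 70.7, 65.8 and 62.9 FPKM in SSp5C and 66.9, 68.1 and 66.4 FPKM in CSp5C. The tissues were far apart, with a difference of -0.52 (SE 0.04, adjusted p = 1.68e-07), the smallest adjusted p of the family. Rpl22, its paralog, showed no such pattern, at 12.5 to 28.1 FPKM in TG and 12.1 to 22.1 FPKM in Sp5C, a difference of 0.15 (95% interval -0.25 to 0.55). Rpl22l1 made up 62.0 to 79.1% of the pair in TG and 75.2 to 84.9% in Sp5C, with overlap. Rps27l made up 16.2 to 34.8% of its pair with Rps27 in TG and 9.83 to 15.6% in Sp5C, without overlap. Rpl7l1 held 7.42 to 8.40% of the pair with Rpl7 in TG and 6.91 to 9.21% in Sp5C, with overlap. Rpl39 lay at 106 ± 12.2 FPKM in TG against 99.4 ± 14.04 FPKM in Sp5C (n = 6, SD), a difference of 0.10 (-0.13 to 0.32). These shares are ratios of FPKM and depend on how reads were divided between similar sequences.

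To see which members departed from the rest of the family, the median log2 level of the members was subtracted in each library. On this scale 13 members were higher in TG (42.0% of all genes were) and 11 lower (23.8% of all genes), or 24 in either direction (65.7% of all genes). The subtraction centres the members by construction, with a median of -0.0015 against 0.14 over all genes. The shares of members and of all genes are thus in part fixed by it. An unadjusted p under 0.05 was found for 27 (34.2%, against 68.5%), and the tissues did not overlap in 11 (13.9%, against 43.9%). The highest called members whose tissues did not overlap on this scale were Rplp0 (1.17, adjusted p = 6.98e-05), Rps27l (0.77, adjusted p = 1.13e-07), Rpl10 (0.45, adjusted p = 4.33e-05), Rpl10a (0.40, adjusted p = 0.000126) and Rps20 (0.30, adjusted p = 0.00223). The lowest whose tissues did not overlap were Rps15a (-0.45, adjusted p = 2.4e-05), Rps21 (-0.42, adjusted p = 0.000196), Rpl37 (-0.41, adjusted p = 0.0006) and Rpl22l1 (-0.40, adjusted p = 0.000192). Of the large subunit genes 10 were higher and 5 lower, and of the small subunit genes 3 were higher and 6 lower. The number of lower members was unstable, at 22 without STG replicate 1.

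Rps24 was examined by transcript after its values had been seen, because its mRNA is made with and without a short exon near the end of the coding sequence. Transcript ENSMUST00000223999 carries the exon and ENSMUST00000169826 does not. The exon has 18 bases and lies at chr14:24494052-24494069 on the plus strand (GENCODE M21, GRCm38). In the lines below it is in capitals between 20 bases before and 12 bases after it in the transcript, followed by the junction without it.
Rps24 with the exon: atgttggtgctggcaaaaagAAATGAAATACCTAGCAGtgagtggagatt
Rps24 without the exon: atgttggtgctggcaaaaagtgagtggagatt
The annotated coding sequences have 393 and 390 bases. The transcript without the exon was at 48.6, 34.9 and 35.2 FPKM in STG, 47.0, 39.6 and 33.7 FPKM in CTG, 74.9, 87.3 and 75.9 FPKM in SSp5C and 64.0, 85.2 and 66.2 FPKM in CSp5C. Every Sp5C library was above every TG library, with a TG minus Sp5C difference of -0.91 (adjusted p = 8.46e-05 over all 20082 transcripts tested). The transcript with the exon averaged 117 ± 15.2 FPKM in TG against 141 ± 12.3 FPKM in Sp5C (n = 6, SD), with overlap and a difference of -0.28 (adjusted p = 0.0295). The form without the exon thus made up 25.6 ± 4.36% of both in TG and 34.9 ± 3.79% in Sp5C, with ranges of 19.6 to 32.2% and 29.3 to 39.4% that overlapped. The difference between these shares was not tested, as it was chosen after the values were seen. Over all transcripts of the family, 7 of 151 tested were higher in TG, where 26.6% of all transcripts were, and 28 were lower, where 27.0% were, together set against 53.5% of all transcripts in either direction.

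**Figure D4:**
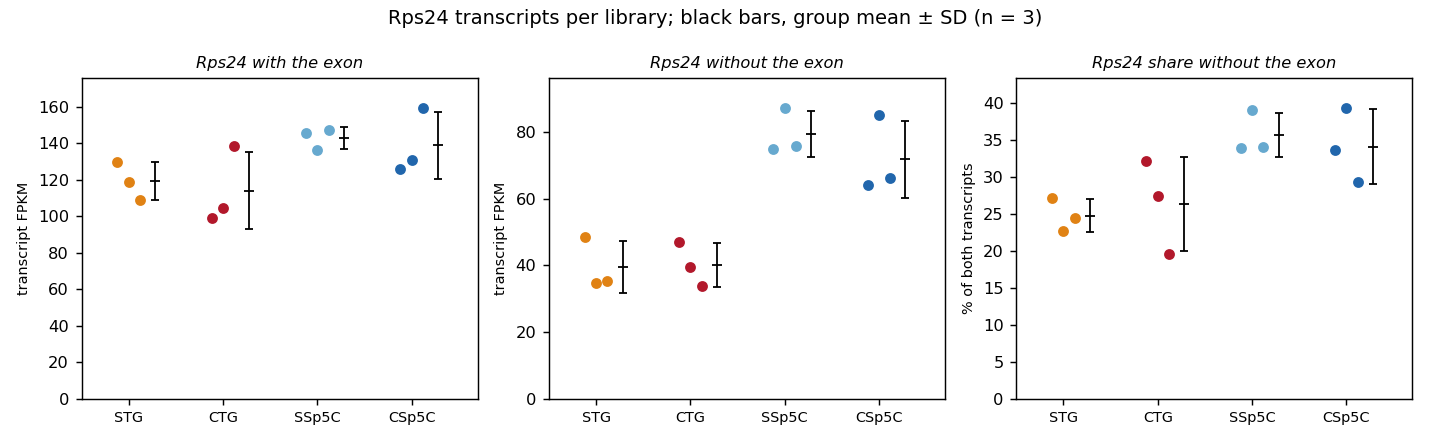
FPKM of the Rps24 transcripts with and without the short exon in every library, and the percentage of their sum held by the form without it, with the group mean ± SD (n = 3) in black. The form without the exon lies at 33.7 to 48.6 FPKM in TG and 64.0 to 87.3 FPKM in Sp5C, and the percentages overlap between the tissues.

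The contrast of C with S compared the groups named by these letters within each tissue. No ribosomal protein gene passed. In TG, 0 of 79 members were called in limma, where 0.00775% of 12906 genes were, and 4 members had an unadjusted p under 0.05 (5.06%, against 4.70% of all genes). In Sp5C, 0 of 79 were called, where 0.0315% of 12690 genes were (0.00788% higher in CSp5C), and 0 had an unadjusted p under 0.05, where 5.02% of all genes had. The difference between the C minus S effects of the tissues was called for 0 members and 0 of 13081 genes, with 2 members (2.53%) and 5.41% of all genes at an unadjusted p under 0.05. No other setting tried called a member in these contrasts. In TG, the means of 67 of 79 members were higher in CTG than in STG (84.8%, against 48.0% of all genes), with a median of 0.12 on the log2 scale against -0.01 over all genes. The members share libraries and are not independent of one another. Leaving out single libraries moved this median between 0.08 and 0.20. The median level of the family was 77.3, 79.2 and 83.9 FPKM in the STG libraries and 97.5, 80.8 and 90.9 FPKM in the CTG libraries. These groups overlapped, and the highest value, in CTG replicate 1, stood in the library with the highest sum of neutrophil genes, whose part was not tested. In Sp5C the median difference was 0.02, and 46 of 79 members were higher in CSp5C.

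**Figure D5:**
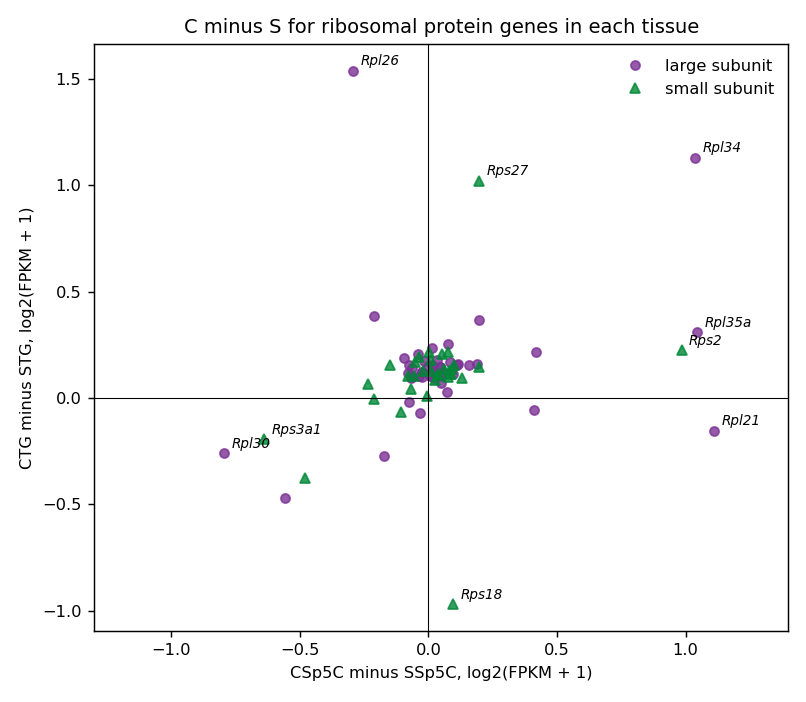
C minus S difference in log2(FPKM + 1) of the 79 members in Sp5C (horizontal axis) and TG (vertical axis), by subunit. Most points lie near 0.02 horizontally and 0.12 vertically. The named outlying genes are members with a shifted library, and Rps27, and no point passed the adjusted threshold on either axis.

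Rps27 had the smallest p in TG. It was at 63.8, 97.1 and 75.3 FPKM in STG and 197, 130.2 and 155 FPKM in CTG, without overlap, and at 108, 178 and 169.7 FPKM in SSp5C and 179.6, 167 and 165 FPKM in CSp5C. The difference in TG was 1.02 (SE 0.20, unadjusted p = 0.00176, adjusted p = 0.912), and that in Sp5C was 0.20 (SE 0.19, adjusted p = 0.931). The leading Rps27 transcript was listed at 0 in STG replicate 1, where 2 other Rps27 transcripts stood at 32.3 and 31.5 FPKM, while those were at 0.0760 to 4.51 FPKM in the other TG libraries. Without that library the difference was 0.88 and did not pass. Groups did not overlap in 6 members in TG (7.59%, against 10.8% of all genes), among them Rpl10a, Rpl13a, Rpl22l1, Rpl28 and Rps27, and CTG was the higher group in each of the 6. Rpl22l1, Rpl28 and Rpl10a had differences of 0.15, 0.15 and 0.21 (adjusted p = 0.96 each), followed by Rpl15 (0.38) and Rpl36 (0.25). In Sp5C, the smallest p belonged to Rpl7a (0.42, 95% interval -0.04 to 0.87, adjusted p = 0.931), then Rps10 (0.20), Rpl24 (0.11), Rps27l (-0.15), Rps9 (0.10) and Rpl15 (-0.21), and the groups overlapped in all of them. For the difference of effects, the smallest p belonged to Rps27 (0.82, adjusted p = 0.882), Rpl15 (0.59, adjusted p = 0.887), Rpl13a (0.17, adjusted p = 0.898) and Rpl38 (0.23, adjusted p = 0.898).

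Other parts of the translation apparatus were listed alongside the family, and none of these genes was called for C minus S except 1 mitochondrial ribosomal protein gene in Sp5C. Their counts for TG against Sp5C are to be read against the 36.2% of all genes that were higher and the 35.0% that were lower, and several lie near those shares. Among ribosome components outside the symbol rule, Fau, which encodes a small subunit protein fused to a ubiquitin-like one, did not pass (-0.13, adjusted p = 0.0742). Of 16 elongation factors and other mRNAs with a TOP motif, 6 were higher and 4 lower, with a median of 0.08. Among them Nap1l1, a histone chaperone, was higher (59.4 ± 3.74 against 42.7 ± 2.01 FPKM, SD, n = 6, 0.46, adjusted p = 4.4e-06), and Eef2, the elongation factor of translocation, was lower (265 ± 10.7 against 342 ± 12.5 FPKM, -0.37, adjusted p = 4.79e-06). Eef1a2, the elongation factor of neurons and muscle, was lower (-0.25, adjusted p = 0.00237). Of 12 initiation factors, 6 were higher and 2 lower, with the scaffold Eif4g1 (0.41, adjusted p = 7.82e-07) and Eif1 (0.32, adjusted p = 6.74e-06) at the smallest p.

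Ribosome biogenesis genes gave 5 higher and 8 lower of 20, where 36.2% and 35.0% of all genes were called, shares that apply also to the lists that follow. The box C/D snoRNP protein Nop56 (-0.50, adjusted p = 8.46e-07) and the pseudouridine synthase Dkc1 (-0.36, adjusted p = 3.56e-05) were lower in TG. Regulators gave 7 higher and 7 lower of 15 tested, led by the kinase gene Rps6ka3 at 42.5 ± 3.49 FPKM in TG and 10.2 ± 0.904 FPKM in Sp5C (1.95, adjusted p = 3.22e-10) and Mycn (1.26, adjusted p = 2.53e-08). Larp1, which binds TOP mRNAs, was higher (0.50, adjusted p = 9.84e-07), and Mtor was lower (-0.26, adjusted p = 4.24e-05). Mitochondrial ribosomal proteins gave 8 higher and 31 lower of 78, with a median of -0.10, led by Mrps22 (-0.46, adjusted p = 2.32e-06) and Mrpl34 (-0.58, adjusted p = 4.09e-06). Of the 13 mitochondrially encoded genes, 0 were higher and 10 lower, with a median of -0.64 and mt-Co1, a cytochrome c oxidase subunit, at the smallest p (-0.95, adjusted p = 6.48e-06). Of 14 tested host genes of small nucleolar RNAs, whose spliced RNAs often start with a TOP motif, 2 were higher and 8 lower on log2(FPKM + 0.5), where 30.3% and 26.1% of 1431 annotated lncRNA genes were. Snhg14 stood at 14.4 ± 3.60 FPKM in TG and 83.7 ± 9.63 FPKM in Sp5C (-2.52, adjusted p = 1.94e-11), Snhg18 at 5.93 ± 0.742 and 1.21 ± 0.140 FPKM (1.91, adjusted p = 2.59e-10) and Zfas1 at 6.00 ± 1.19 and 10.5 ± 0.781 FPKM (-0.77, adjusted p = 4.21e-06, SD, n = 6 throughout).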

How the data were processed

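RNA of 12 libraries was processed upstream with HISAT2, of unstated version, StringTie 1.3.1 and Cuffdiff 2.1.1, per the submitters' processing notes. Per the labels' protocols, rRNA was removed and directional libraries were made. The authors deposited FPKM per transcript, and no read numbers, so depth is not known. The genome build used upstream is not given in the sources used here. Transcript FPKM were summed per gene and tested with limma 3.58.1 (R 4.3.3) on log2(FPKM + 1), two-sided, with a mean-dependent robust prior, a filter of mean FPKM of at least 1, Benjamini-Hochberg adjustment over all genes and a threshold of 0.05. The lncRNA used a pseudocount and filter of 0.5. Fold changes on this scale understate changes of low genes. TG against Sp5C and the difference of effects used all 12 libraries, and C against S the 6 of its tissue. Copies were found with blastn 2.17.0 (at least 95% identity over 90% of the coding sequence). Gene IDs of all 83 members matched GENCODE M21. The fit was tested on simulated data. A few genes entered every fit and count but are not reported here by name.

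The members and lists were chosen with earlier results of these data known. Genes were named by a rule. It took up to 8 highest and 8 lowest called members with separate tissues, 5 and 5 relative to the family, the 6 smallest p for each C minus S contrast and 4 for the difference of effects, the 5 highest levels, members under the filter, 24 members always looked up, 2 per list and 3 host genes. The other gene lists are those named in the report. Alternatives were the pseudocount, the filter, 2 normalizations, the leading transcript, the prior, single libraries left out, either letter alone and the replicate block. The fit without STG replicate 1 and CTG replicate 1 and the fit by transcript were added after the data were seen.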

Additional observations from a re-analysis of the deposited data

Results flagged for a closer look

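Each level was looked at for a library far from the other 5 of its tissue, by Dixon's criterion with a critical value of 0.625. Of 162 groups examined, 23 were found, in 20 members, of which 22 are given here. The critical value marks about 1 group in 20 for independent, normally distributed values. These FPKM mix both letters, and C libraries of one number share deviations between the tissues. The share over all genes is not given, so the count is a description and no excess over chance is read from it. No cause was tested for any of them.

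In TG, Rpl14 was at 30.1 FPKM in CTG replicate 1 and Rpl34 at 47.6 FPKM in CTG replicate 2. Rpl8 was at 152.1 FPKM in CTG replicate 1, Rps10 at 74.9 FPKM in STG replicate 2, Rps18 at 63.0 FPKM in STG replicate 1 and Rpsa at 26.3 FPKM in CTG replicate 3.

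In Sp5C, 17 were found. CSp5C replicate 3 stood apart for Rpl18 (85.9 FPKM), Rpl21 (14.4 FPKM), Rpl26 (113.9 FPKM), Rpl30 (5.02 FPKM), Rps2 (35.4 FPKM), Rps3a1 (33.6 FPKM) and Rpsa (38.2 FPKM). CSp5C replicate 2 did so for Rpl22 (12.1 FPKM), Rpl34 (44.7 FPKM) and Rps12 (22.2 FPKM), and CSp5C replicate 1 for Rpl14 (32.0 FPKM) and Rpl17 (28.9 FPKM). Among SSp5C libraries, replicate 2 stood apart for Rpl15 (58.9 FPKM) and Rps13 (98.6 FPKM), and replicate 1 for Rps27 (108.4 FPKM) and Rps27a (180.2 FPKM). The C libraries of the same number hold the extreme value of Rpl14, Rpl34 and Rpsa in both tissues.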

How the results depend on the processing

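For TG minus Sp5C, leaving out single libraries gave 4 to 8 members higher and 25 to 33 lower, with a median of -0.18 to -0.09, and 23 of the 34 called members stayed called under every setting except either letter alone. S libraries alone gave 3 higher and 31 lower, and C libraries alone 6 higher and 13 lower. The shares of all genes called in these alternative fits are not given, so the counts are not set against them. Relative to the family, S libraries alone gave 13 and 8, C libraries alone gave 5 higher and 5 lower, and leaving out single libraries gave 10 to 14 higher and 8 to 22 lower, or 21 lower without STG replicate 1 and CTG replicate 1. The family's share of FPKM without mitochondrially encoded genes was 2.77% in TG and 3.15% in Sp5C. Of the full protein-coding sum, the family held 2.51% in TG and 2.69% in Sp5C. Leaving Rps29 out of the family made these 2.42% and 2.57%. With the leading transcript alone, the value for Rps27a was 1.005 (adjusted p = 0.303), with its sign turned. The cause was not tested. Over the named genes 1866 other values kept both sign and call, 84 that were called in neither fit turned sign, 36 lost the call and 11 gained it. Among the 84, Rplp0 for CTG minus STG was 0.19, -0.40 with the leading transcript, -0.07 without STG replicate 2 and -0.05 without CTG replicate 1 (adjusted p = 0.965 to 0.99).

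Same-numbered libraries were not treated as pairs in the main fits. Their deviations from the group mean over all genes correlated at 0.228 to 0.383 between CTG and CSp5C but at -0.197 to -0.0227 between STG and SSp5C. Over the members these were 0.803 to 0.911 and 0.0138 to 0.43, and every CTG and CSp5C library correlated best with its own number. For the fit with a replicate block, the share of all genes called is not given. That fit gave 9 higher and 32 lower members, and 16 and 14 relative to the family. It also gave 0 in the contrasts of C with S and their difference, and 2 higher and 8 lower host genes. Among named genes it called Rpsa (-0.44, adjusted p = 0.000107), Rpl11 (-0.12, adjusted p = 0.0206) and Rpl15 (0.19, adjusted p = 0.0371), and Rps27a was not called (adjusted p = 0.0666). Depth is unknown, so no counting error can be given, and levels of genes with near-identical copies are limited by how reads were assigned.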

Other observations

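Beyond Rps24, single transcripts of other members differed between the tissues, named here after their values were seen. A transcript of Rps15 (ENSMUST00000062674) averaged 17.6 ± 10.9 FPKM in TG against 54.3 ± 32.4 FPKM in Sp5C (n = 6, SD, -1.57 on the log2 scale, limma adjusted p = 0.00763), and the tissues overlapped. A transcript of Rpl31 (ENSMUST00000179954) averaged 4.14 ± 0.678 and 8.84 ± 2.06 FPKM without overlap (-0.92, adjusted p = 0.000322). A transcript of Rpl41 (ENSMUST00000177163) averaged 98.1 ± 69.7 FPKM in TG and 44.9 ± 4.27 FPKM in Sp5C (0.89, adjusted p = 0.0252). For Rplp0, the leading transcript (ENSMUST00000086519) was higher in TG by 0.79 (adjusted p = 0.00417).

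In other members the transcript holding most of the FPKM changed between libraries. For Rpl10, ENSMUST00000008826 was listed at 93.5, 86.6 and 0.472 FPKM in STG and at 0, 76.4 and 100.6 FPKM in CTG, with ENSMUST00000074085 at 59.9, 43.6, 126.5, 150.1, 57.1 and 51.6 FPKM in the same order. Rps27a did likewise, with ENSMUST00000102844 at 98.0, 104 and 0.845 FPKM and ENSMUST00000102845 at 10.6, 0.268 and 82.1 FPKM in CSp5C. No cause was tested.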
